A study of Mus musculus with 40 samples.

Results

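The downstream V segments of the mouse T cell receptor beta locus (Trb) were TRBV23, TRBV24, TRBV26, TRBV29, TRBV30 and TRBV31. They were chosen by name, as the listed TRBV segments from TRBV23 onward in the order of the locus. These are 6 of the 22 TRBV segments that the Trb count tables list, and the other 16 run from TRBV1 to TRBV20. Of the 6, 5 were listed in all 4 Trb libraries, and TRBV31 was listed in the replicate 1 library of each genotype only.

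The series concerns a CTCF binding site, called EACBE, at the enhancer Ea of the T cell receptor alpha locus. Wild-type mice (EACBE+/+) and mice lacking the site (EACBE-/-), both C57BL/6 and 4 to 8 weeks old, gave thymus RNA. Receptor transcripts were copied by 5′ RACE with template switching, which adds a common sequence to the 5′ end of the transcript and so needs no V-specific primer. There were 2 Trb libraries per genotype, out of 40 samples in the series. The deleted site lies on chromosome 14 with the alpha locus, while Trb lies on chromosome 6. The labels do not say that the 2 libraries of a genotype came from separate mice, so p-values measure only the spread between these libraries. Thymus holds T cells at several stages, and the transcripts of all of them were counted together.

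A beta chain gene is assembled in developing thymocytes by joining a D to a J segment and then a V segment to the joined DJ. The V segment encodes most of the variable domain, including the germline-encoded loops that contact the major histocompatibility complex. The locus has a pair of D-J-C clusters, so a V segment can be joined to J segments of the TRBJ1 or of the TRBJ2 cluster. Most TRBV lie upstream of the D segments, whereas TRBV31 lies beyond the last constant region gene in the opposite orientation and joins by inversion.

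In the RefSeq annotation of GRCm38.p6, the assembly on which the authors' build mm10 rests, all 6 members lie on chromosome 6. TRBV23 spans 41216073 to 41216526, TRBV24 spans 41218091 to 41218557, and TRBV26 spans 41227525 to 41227913. TRBV29 spans 41271403 to 41271881 and TRBV30 spans 41281376 to 41281990. These 5 occupy 65.9 kb, and the end of TRBV30 lies 251.2 kb upstream of TRBD1, the first D segment, against 641.3 kb for TRBV1 at the far end. TRBV31 spans 41557693 to 41558371, 9.5 kb beyond the end of TRBC2. Older names in the annotation are Tcrb-V20 for TRBV23, Tcrb-V17 for TRBV24, Tcrb-V3 for TRBV26, Tcrb-V7 for TRBV29, Tcrb-V18 for TRBV30 and Tcrb-V14 for TRBV31. Tcrb-V3 and Tcrb-V7 are known from the loss of T cells carrying them in mouse strains with certain endogenous mammary tumour viruses. RefSeq classes TRBV29 as a V segment pseudogene and the other members as V segments, yet TRBV29 had the highest share of the members in every library.

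The library totals were 11412 and 418135 counts in wild-type thymus and 20678 and 443589 counts in EACBE-/-, replicate 1 first. The replicate 1 libraries were thus far shallower in both genotypes, and a count of 0 allows a share of up to 0.0263% in the shallowest library and 0.00068% in the deepest. The 2 replicates of a genotype differed by more than sampling noise (chi-square over 21 TRBV of 671.7 in wild-type thymus and 533.9 in EACBE-/-, 20 degrees of freedom). Intervals and limits for 0 counts cover counting error only.

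TRBV29 was the most used member. It took 7.69% and 5.64% of all Trb counts in wild-type thymus and 6.83% and 5.81% in EACBE-/-, which placed it between 5th and 8th among the listed TRBV. TRBV26 followed with 2.72% and 3.13% in wild-type thymus and 2.64% and 2.81% in EACBE-/-. The 4 TRBV26 values lay close together, with the highest in the deep wild-type library. TRBV23 took 2.20% and 1.41% in wild-type thymus and 1.94% and 1.63% in EACBE-/-, so that both genotypes were higher in replicate 1. TRBV24, which lies next to TRBV23 on the chromosome, took 0.386% and 0.518% in wild-type thymus and 0.435% and 0.540% in EACBE-/-. TRBV30 was the least used of all listed TRBV in each of the 4 libraries. Its share was 0.298% and 0.354% in wild-type thymus and 0.261% and 0.279% in EACBE-/-, from 34, 1479, 54 and 1236 counts.

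The order TRBV29, TRBV26, TRBV23, TRBV24, TRBV30 was the same in all 4 libraries, and no neighbours in that order overlapped in their ranges. The ratio of mean shares was 2.30 from TRBV29 to TRBV26, 1.57 from TRBV26 to TRBV23, 3.82 from TRBV23 to TRBV24 and 1.58 from TRBV24 to TRBV30. Use did not follow position: TRBV23 and TRBV24 are adjacent and differed 3.82-fold, and TRBV29 and TRBV30, also adjacent among the listed segments, were the most and the least used of the 5. The summed share of the 5 segments was 13.3% and 11.0% in the wild-type libraries, and 12.1% and 11.1% in the EACBE-/- libraries.

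TRBV31 took 4.85% of counts in wild type (553 counts, 95% Wilson interval 4.47 to 5.26) and 4.26% in EACBE-/- (880 counts, 3.99 to 4.54), both in replicate 1. It ranked 9th and 11th of 22 TRBV there, between TRBV29 and TRBV26. With 1 library per genotype there was no test of its level, and the ratio of EACBE-/- to wild type, 0.878, has no replicate check. In replicate 2 the tables hold no TRBV31 row, so its level there is unknown and is not taken as 0.

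**Figure D1:**
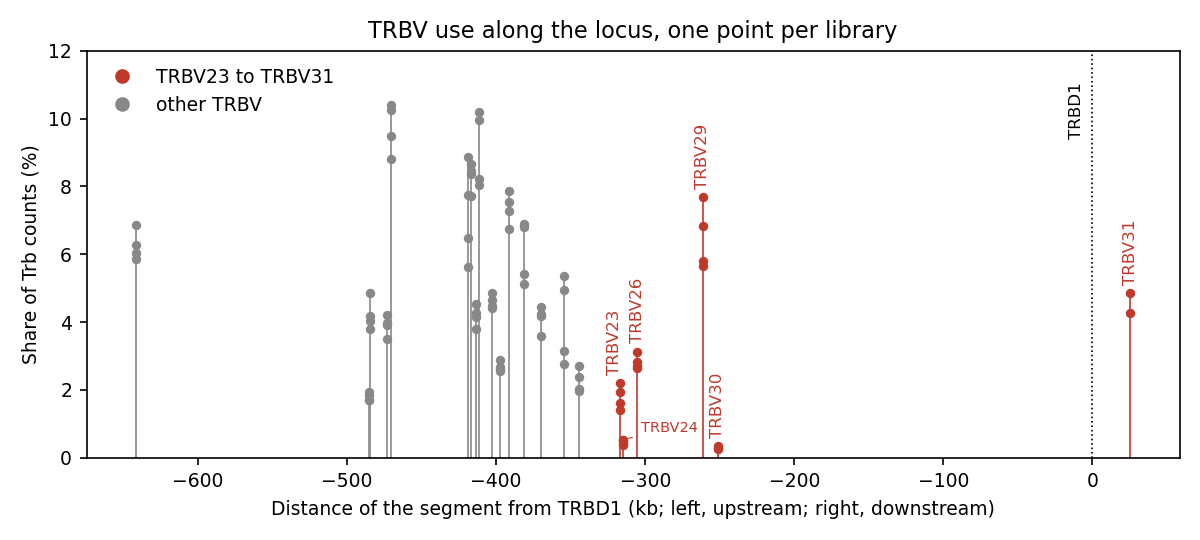
Share of all Trb counts (vertical axis, %) of each listed TRBV against its distance from TRBD1 (horizontal axis, kb), with 1 point per library and a stem from 0 to the highest. Among the downstream segments (red) TRBV29 reaches 7.69%, TRBV24 and TRBV30 stay under 1%, and TRBV31 lies alone on the other side of TRBD1.

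**Figure D2:**
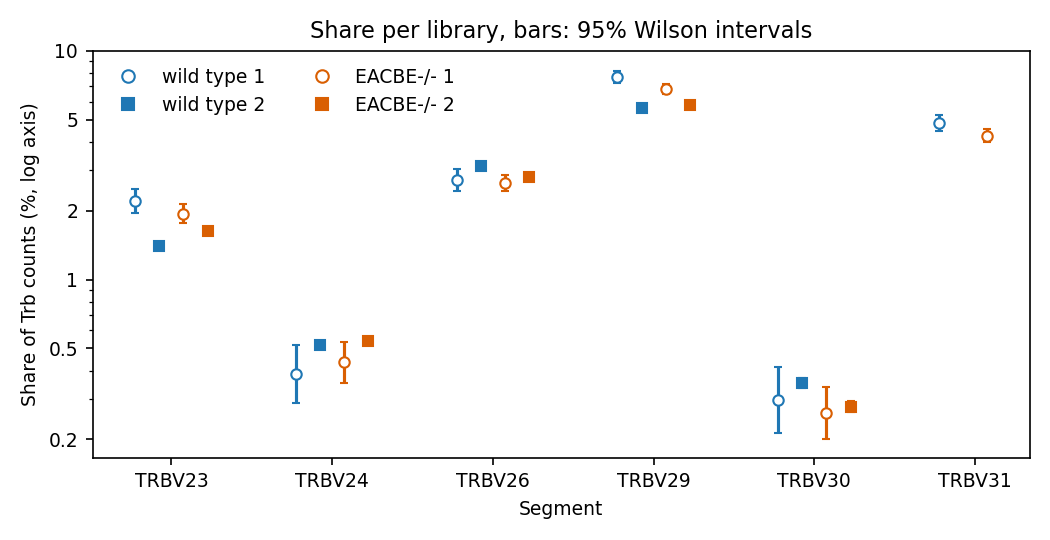
Share of all Trb counts (vertical log axis, %) of the 6 downstream segments in each library, with 95% Wilson intervals as bars; open symbols are replicate 1 and filled symbols replicate 2. The 5 segments listed in all 4 libraries keep 1 order there, and of these 5 only TRBV30 has both EACBE-/- points below both wild-type points.

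Whether loss of the site changed the use of these segments was tested over all TRBV. In the fit of genotype alone, no difference between EACBE-/- and wild type passed the test for any of the 5 members. edgeR's quasi-likelihood test with Benjamini-Hochberg adjustment called 0 of 21 TRBV (0%), 0 were under an unadjusted p of 0.05, and DESeq2 called 0. The mean share of TRBV29 was 6.67% ± 1.45 in wild-type thymus and 6.32% ± 0.726 in EACBE-/- (SD, n = 2 each). Its log2 change was -0.07 (SE 0.212, 95% interval -0.52 to 0.38). TRBV26 had 2.92% ± 0.289 and 2.73% ± 0.122, a log2 change of -0.10 with an interval of -0.48 to 0.27. TRBV23 had 1.80% ± 0.561 and 1.785% ± 0.225, a log2 change of 0.01 with an interval of -0.45 to 0.47. For TRBV24 the means were 0.452% ± 0.0937 and 0.487% ± 0.0739, and the log2 change was 0.08 with an interval of -0.35 to 0.50. With 2 libraries per genotype, the fit does not exclude changes inside these intervals.

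TRBV30 came nearest to a difference. Its mean share was 0.326% ± 0.0394 in wild-type thymus and 0.270% ± 0.0124 in EACBE-/- (SD, n = 2 each), and both EACBE-/- libraries lay below both wild-type libraries. The log2 change was -0.30 (SE 0.196, 95% interval -0.72 to 0.11). Like the other members, TRBV30 had an adjusted p of 0.970 in edgeR's quasi-likelihood test of genotype alone. With the replicate number added to the fit as a block TRBV30 was called, but the labels do not say that the numbers pair libraries. Both EACBE-/- libraries lay below both wild-type libraries in 1 of 21 TRBV (4.76%), and the genotypes did not overlap in either direction in 3 of 21 (14.3%). The median log2 change was -0.07 over the 5 members and 0.01 over the 21 TRBV.

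Within replicate numbers, the ratio of EACBE-/- to wild type went in different directions for TRBV23 (0.884 in replicate 1 and 1.16 in replicate 2) and TRBV29 (0.888 and 1.03). It was below 1 in both for TRBV26 (0.972 and 0.900) and TRBV30 (0.877 and 0.788), and above 1 in both for TRBV24 (1.13 and 1.04). The summed share of the 5 segments was 12.2% ± 1.59 in wild-type thymus and 11.6% ± 0.742 in EACBE-/-. The difference was -0.580 percentage points, with a two-sided exact permutation p of 1 (n = 2 each, smallest possible p 0.333).

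The replicate number moved some members more than genotype did. Among the counts of segments listed in both replicates, TRBV23 was 1.65 times as frequent in replicate 1 as in replicate 2 of wild type and 1.25 times in EACBE-/-. TRBV29 was 1.43 and 1.23 times as frequent. TRBV24 went the other way in both genotypes, with ratios of 0.782 and 0.842, while TRBV26 (0.913 and 0.980) and TRBV30 (0.885 and 0.979) were closer to 1. The part of depth in these differences was not tested.

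The J segments joined to each member were compared next. The tables list 11 TRBJ, of which 5 belong to the TRBJ1 cluster and 6 to the TRBJ2 cluster. Joins of the 16 other TRBV used TRBJ2 at a share of 68.5% and 71.5% in the wild-type libraries, and of 67.8% and 69.0% in the EACBE-/- libraries. TRBV30 was above them in every library, with 88.2% (30 of 34 counts) and 77.9% in wild-type thymus and 75.9% and 76.5% in EACBE-/-, and ranked first or second among the listed TRBV. TRBV26 was below them in every library, with 65.2% and 66.3% in wild-type thymus and 62.8% and 63.2% in EACBE-/-. TRBV29 was also below in every library, with 68.2% and 65.6% in wild-type thymus and 65.7% and 63.6% in EACBE-/-. In wild type replicate 1 this was a near tie, with a difference of -0.274 percentage points on 878 counts of TRBV29.

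TRBV23 and TRBV24 had no common direction. TRBV23 had TRBJ2 shares of 69.7% and 70.8% in wild-type thymus and 74.9% and 68.0% in EACBE-/-, and TRBV24 had 75% (33 of 44 counts) and 69.5% against 61.1% and 65.8%. In replicate 1, where it is listed, TRBV31 had 60.4% in wild-type thymus, the lowest of 22 TRBV, and 64.4% in EACBE-/-, the 17th.

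The mean difference from the 16 other TRBV within libraries was 10.4 percentage points for TRBV30, -4.84 for TRBV26 and -3.40 for TRBV29, each with the same sign in 4 of 4 libraries. It was 1.64 for TRBV23 and -1.35 for TRBV24, with both signs among the libraries. A constant side was not particular to the members, as most of the 16 other TRBV also kept the same side of the pooled 16 in all 4 libraries. TRBV3, TRBV4, TRBV13-2, TRBV14 and TRBV17 were above in each, and TRBV5, TRBV13-1, TRBV13-3, TRBV19 and TRBV20 below. TRBV17 was above the pooled others, with 81.5% and 80.3% in wild-type thymus and 77.8% and 77.4% in EACBE-/-. It ranked first wherever TRBV30 ranked second. TRBV20 was below, with 68.1% and 66.0% in wild-type thymus and 62.5% and 62.5% in EACBE-/-. A two-sided exact sign-flip permutation test gave p = 0.125 for TRBV30, TRBV26 and TRBV29, the smallest p that 4 libraries allow, and p = 0.625 for TRBV23 and TRBV24. For the sum of the 5 segments the difference was -2.52 points, with an exact permutation p of 0.125 in the same test. Over these 6 comparisons the Benjamini-Hochberg adjusted value of the 4 smallest was 0.188, so none could pass 0.05 in this design. The sum takes most of its counts from TRBV29 and TRBV26, and it turned to 0.498 points when the 5 segments were weighted equally.

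**Figure D3:**
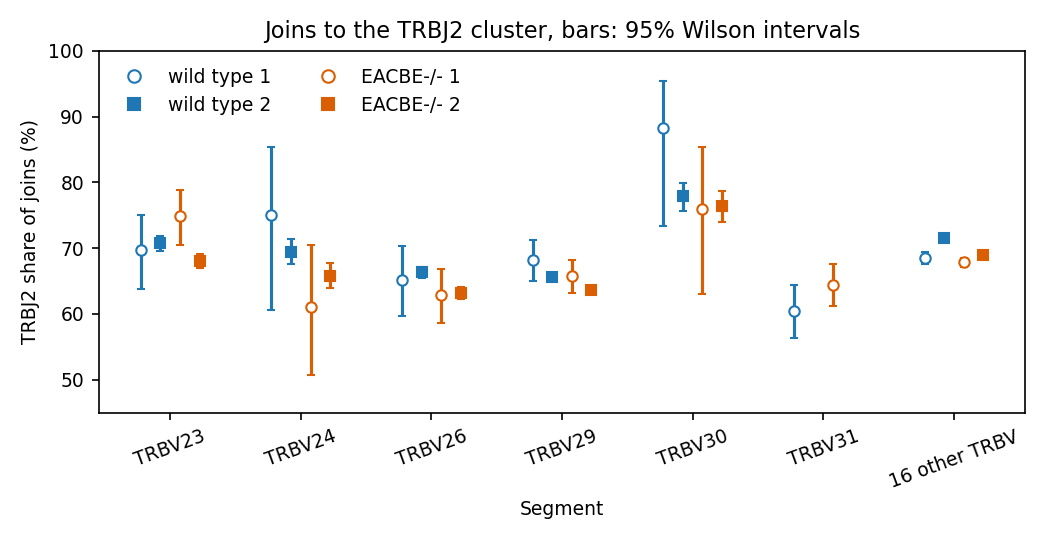
Share of joins to TRBJ2 (vertical axis, %, not starting at 0) for each downstream segment and for the 16 other TRBV, with 1 point per library and 95% Wilson intervals as bars. All points of TRBV30 lie above those of the other TRBV in the same library, and all points of TRBV26 and TRBV29 below. The point of TRBV29 in wild type replicate 1 is a near tie.

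Between genotypes, the mean TRBJ2 share of the 5 segments together differed by -2.17 percentage points in EACBE-/- (two-sided exact permutation p = 0.333, n = 2 each, the smallest possible). The difference was 1.22 points for TRBV23, -8.77 for TRBV24, -2.73 for TRBV26, -2.26 for TRBV29 and -6.87 for TRBV30. The TRBV24 and TRBV30 values rest on fewer than 100 counts in each replicate 1 library, and within replicate 2 their differences were -3.65 and -1.43 points. Joins of the other TRBV also used TRBJ2 less in EACBE-/- within each replicate number. Their shares were 67.8% and 69.0% in EACBE-/- against 68.5% and 71.5% in wild-type thymus, replicate 1 first. The 5 segments together had 66.6% and 64.6% against 68.5% and 67.1% in the same order. Whether the members changed more than the other TRBV was not tested.

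Single J segments were then compared between joins of 1 TRBV and joins of all other TRBV of the same library, with the library as a block. This comparison differed widely across the locus: edgeR's quasi-likelihood test called 151 of 231 combinations of V and J (65.4%) at an adjusted p of 0.05, 71 higher (30.7%) and 80 lower (34.6%). The 5 members had 28 calls in 55 combinations, 12 higher and 16 lower, against 123 in 176 for the 16 other TRBV. TRBV24 and TRBV30 had the lowest counts of all listed TRBV, and the part of counts in the lower share of calls was not tested. TRBV26 had 8 calls, TRBV29 and TRBV30 had 7 each, TRBV23 had 4 and TRBV24 had 2. Of the 28 calls, 9 had the same direction in all 4 libraries, 10 passed whichever single library was left out, and 12 passed with DESeq2. Leaving out wild type replicate 2 ended 15 of them and leaving out EACBE-/- replicate 2 ended 11, against 3 for wild type replicate 1 and 2 for EACBE-/- replicate 1. These counts of kept and lost calls are given for the members only and are not compared with those of the other TRBV.

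The largest log2 change of TRBV29 was in TRBJ1-5. Of TRBV29 joins, 3.53% and 4.48% in wild-type thymus and 4.88% and 4.97% in EACBE-/- used TRBJ1-5, against 2.66%, 2.58%, 2.77% and 2.89% of all other joins in the same order. All 4 libraries were higher, and in 3 of them TRBV29 ranked first among the listed TRBV. The log2 change was 0.78 (SE 0.0512, adjusted p = 3.14e-15, edgeR), the call passed without any single library, and it passed with DESeq2. TRBJ1-5 was called higher in 7 of the 21 TRBV tested and lower in 7. TRBJ2-7 was lower among TRBV29 joins, at 13.0% and 17.1% in wild-type thymus and 13.3% and 15.4% in EACBE-/-. All other joins had 15.1%, 18.7%, 15.5% and 17.5%. This log2 change was -0.17 (SE 0.0221, adjusted p = 5.92e-08, edgeR), with all 4 libraries lower and the call kept without any single library. TRBJ1-2 and TRBJ1-4 were also called higher, with log2 changes of 0.25 and 0.34, and TRBJ2-1, TRBJ2-3 and TRBJ2-4 lower, with changes of -0.19, -0.19 and -0.17. Each of these 5 was lost without EACBE-/- replicate 2, all but TRBJ2-1 also without wild type replicate 2, and each had 1 library in the opposite direction. DESeq2 kept TRBJ1-4, TRBJ2-1 and TRBJ2-4 of them.

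The highest log2 change of TRBV26 was in TRBJ1-2. The share of TRBJ1-2 was 6.13% and 9.12% of TRBV26 joins in wild-type thymus and 8.79% and 8.96% in EACBE-/-, against 5.20%, 5.45%, 5.05% and 5.53% of all other joins. It was higher in all 4 libraries, although by less in wild type replicate 1, where it rests on 310 counts of TRBV26. TRBV26 ranked 10th and 1st among the listed TRBV in wild-type thymus, and 3rd and 2nd in EACBE-/-. The log2 change was 0.72 (SE 0.0248, adjusted p = 1.91e-09, edgeR), kept without any single library and with DESeq2. TRBV20, named after its values were seen, had a log2 change of 0.70 for the same J segment. For TRBV26, TRBJ1-1 (log2 change 0.12) and TRBJ1-3 (0.34) were called higher, and TRBJ2-4 (-0.14), TRBJ2-5 (-0.26) and TRBJ2-7 (-0.12) lower. All 5 passed without any single library, each had 1 library in the opposite direction, and with DESeq2 only TRBJ1-3 of them passed. TRBJ1-5 was lower in all 4 libraries (log2 change -0.31), in contrast to its high share in TRBV29, and TRBJ2-2 was called lower (-0.12), and both calls were lost without wild type replicate 2, the second also with DESeq2 and with TMM factors. The 3 calls in the TRBJ1 cluster that were higher and the 4 in TRBJ2 that were lower accompany the low TRBJ2 share of TRBV26 given above.

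The largest log2 change of TRBV23 was its low share of TRBJ1-3. It was 2.39% and 3.28% in wild-type thymus and 3.48% and 4.01% in EACBE-/-, against 5.90%, 4.68%, 5.95% and 5.10% of all other joins, and thus lower in all 4 libraries. The log2 change was -0.44 (SE 0.0724, adjusted p = 2.59e-06, edgeR), kept without any single library and with DESeq2. TRBV23 ranked 20th of 22 and 19th of 21 TRBV in both genotypes, and TRBJ1-3 was called lower in 9 of the 21 TRBV tested. TRBJ1-2 was called higher with a log2 change of 0.35 (adjusted p = 2.30e-07, edgeR), from 7.17%, 7.21% and 7.15% in 3 libraries and 4.23% in EACBE-/- replicate 1, where other joins had 5.17%. This call was lost without either replicate 2 library. The calls of TRBJ1-5 (log2 change 0.21) and TRBJ1-1 (-0.13) were lost without either of the replicate 2 libraries or wild type replicate 1. Both were also lost with DESeq2, and TRBJ1-1 with TMM factors too. Each had 1 library in the opposite direction.

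TRBV30, the least used segment, had the lowest log2 changes of single J shares among the members, in TRBJ1-3 and TRBJ1-5. TRBJ2-5 made up 17.6% and 15.7% of its joins in wild-type thymus and 20.4% and 16.5% in EACBE-/-, against 12.3%, 12.6%, 12.3% and 12.1% of all other joins. TRBV30 ranked first for TRBJ2-5 among the listed TRBV in each library. The log2 change was 0.39 (SE 0.0793, adjusted p = 6.95e-05, edgeR), and this call was kept without any single library but not with DESeq2. TRBJ2-1 was also higher in all 4 libraries, with 17.6% and 15.1% in wild-type thymus, 20.4% and 16.2% in EACBE-/-, and 11.9% to 13.0% of all other joins. Its log2 change was 0.30, and the call was lost without EACBE-/- replicate 2.

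At the other end, TRBJ1-3 was rare among TRBV30 joins. It had 0 of 34 and 2.30% in wild-type thymus and 0 of 54 and 2.99% in EACBE-/-, against 5.84%, 4.67%, 5.92% and 5.09% of all other joins. The count of 0 in wild type replicate 1 allows a share of up to 8.82%, above that of the other joins, and the one in EACBE-/- replicate 1 allows up to 5.56%, just below it. The log2 change was -0.95 (SE 0.218, adjusted p = 0.000289, edgeR), which passed with DESeq2 and was lost without wild type replicate 2. TRBJ1-5 had a log2 change of -1.18 (SE 0.325, adjusted p = 0.00183, edgeR), with the same dependence on wild type replicate 2. It had 0.879% and 1.70% in the replicate 2 libraries against 2.69% and 3.01%. Wild type replicate 1 went the other way, with 2.94% (1 of 34 counts) against 2.72%. EACBE-/- replicate 1 had 0 of 54 counts, which allows up to 5.56%. TRBJ1-4 (-0.61) and TRBJ2-4 (-0.30) were called lower and TRBJ2-7 (0.20) higher. Each was lost without wild type replicate 2, among other libraries for TRBJ2-4 and TRBJ2-7. In EACBE-/- replicate 1, TRBJ1-4 (9.26% against 7.71%) and TRBJ2-7 (11.1% against 15.4%) went in the opposite direction. TMM factors raised the log2 values of TRBV30 by a median of 0.17 and DESeq2 size factors changed them by -0.15, without a change of sign in any of the 7 calls. TMM factors ended the call of TRBJ2-4, and DESeq2 kept only TRBJ1-3 and TRBJ1-5.

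TRBV24 had the fewest calls, from the lowest counts of the members after TRBV30. TRBJ1-2 was called higher, at 2.27% and 7.39% in wild-type thymus and 10% and 7.27% in EACBE-/- against 5.13% to 5.61% of all other joins, a log2 change of 0.40 (adjusted p = 0.00279, edgeR). TRBJ2-2 was called lower (log2 change -0.32, adjusted p = 0.0188, edgeR). Both calls had 1 library in the opposite direction, neither passed with DESeq2, and the first was lost without wild type replicate 2 and the second without either EACBE-/- library.

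TRBJ1-2 was called higher in 4 of the 5 members, TRBV23, TRBV24, TRBV26 and TRBV29, and not in TRBV30. It was also called higher in 8 of the 16 other TRBV and lower in 6 of them, so nothing particular to the members is read from it. TRBV31, which is listed in replicate 1 only, had TRBJ1-2 shares of 7.78% in wild-type thymus and 9.09% in EACBE-/-, against 5.09% and 4.98% of all other joins, and ranked first and second of 22 TRBV. A fit on the replicate 1 libraries alone gave it a log2 change of 0.76 (SE 0.276, adjusted p = 0.206, edgeR), which did not pass. That fit called 5 of 242 combinations (2.07%) and none of the members', from 2 libraries of low depth.

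**Figure D4:**
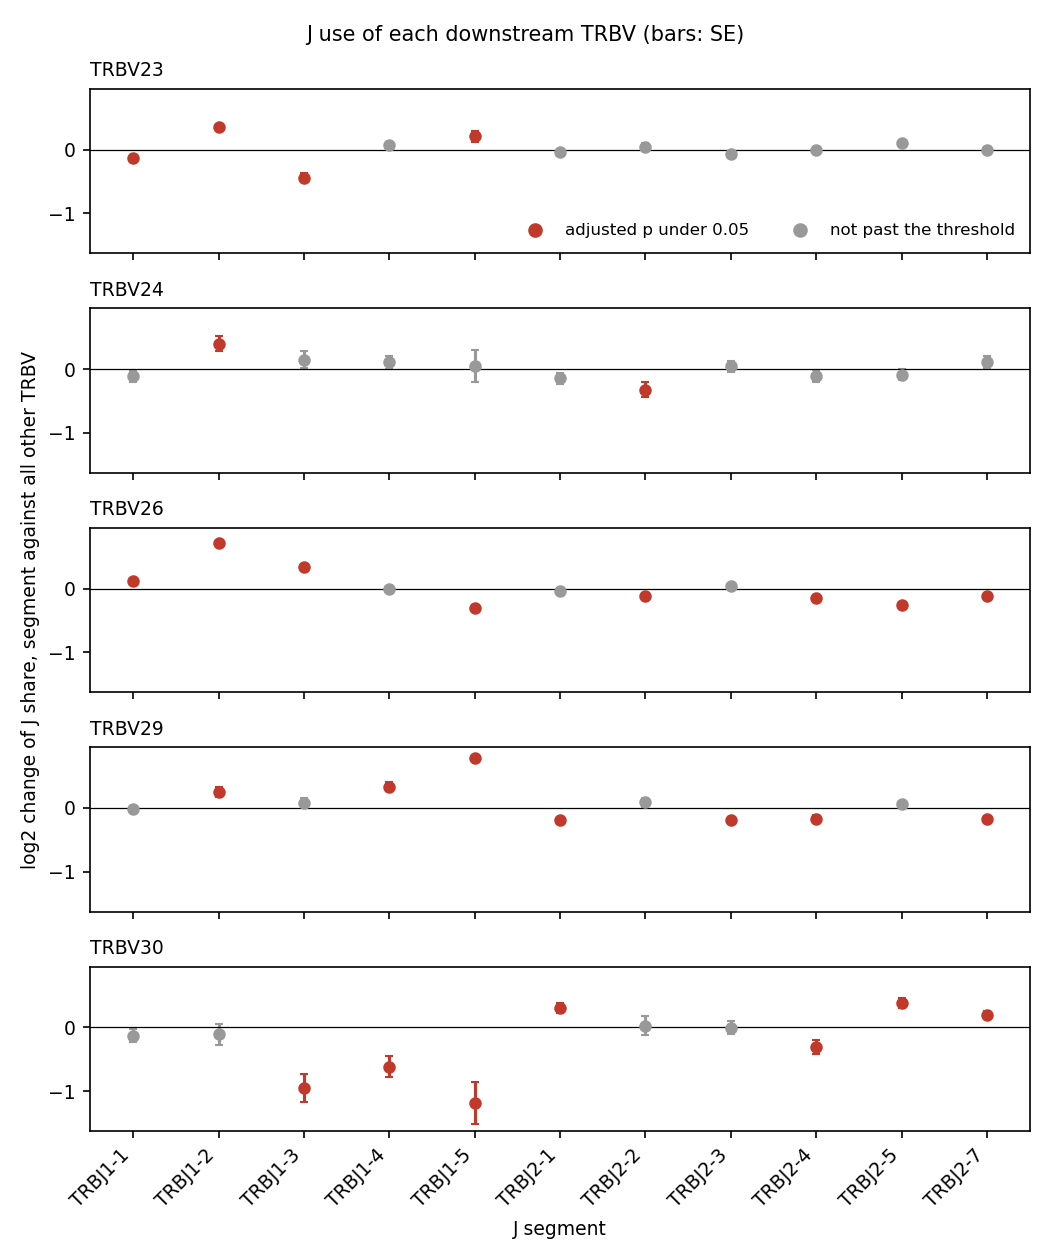
Log2 change of the share of each TRBJ (horizontal axis) in joins of 1 downstream segment against joins of all other TRBV (vertical axis), with 1 panel per segment. Bars are SE, derived from the F statistic of the test. Red points passed an adjusted p of 0.05 in edgeR's quasi-likelihood test. TRBJ1-5 is high in TRBV29 and low in TRBV30 and TRBV26, and TRBJ1-2 is high in TRBV26.

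The likeness of whole J profiles was measured as the total variation distance between the J shares of 2 segments, which is 0 for equal profiles and 1 for profiles with no J in common, averaged over the 4 libraries. For TRBV26 the nearest of the 16 other TRBV were TRBV13-3 (0.0569), TRBV13-1 (0.0699) and TRBV19 (0.0720). TRBV29 was nearest to TRBV1 (0.0618), TRBV5 (0.0710) and TRBV3 (0.0719), and TRBV23 to TRBV12-2 (0.0661), TRBV1 (0.0664) and TRBV3 (0.0668). For TRBV24 the mean distances were larger, with TRBV1 (0.109), TRBV13-3 (0.115) and TRBV13-1 (0.115) nearest. TRBV24 has only 44 and 90 counts in the replicate 1 libraries. In the replicate 2 libraries alone, TRBV1 lay at 0.0471 from TRBV24 and at 0.0423 from TRBV29, so a distant profile of TRBV24 is not read from the means.

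TRBV30 was nearest to TRBV17 (0.113), followed at a distance by TRBV4 (0.166) and TRBV3 (0.170). TRBV31 was nearest to TRBV13-3 over its 2 libraries (0.0628), which was also the nearest of TRBV26, and its distance to TRBV26 itself was 0.0697. These distances include counting noise: between the shallow replicate 1 libraries of both genotypes a segment differed from itself by 0.0639 (TRBV31) to 0.282 (TRBV24), and between the deep replicate 2 libraries by 0.0295 (TRBV29) to 0.0606 (TRBV24). In the replicate 2 libraries alone, a ranking looked up after the values were seen, the nearest was TRBV20 for TRBV26 (0.0251, against 0.0854 over all 4 libraries) and TRBV2 for TRBV23 (0.0319). TRBV1 stayed nearest to TRBV29 (0.0423) and TRBV24 (0.0471) there and TRBV17 to TRBV30 (0.0508), whereas TRBV5 and TRBV3 ranked only 8th and 9th for TRBV29.

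The J profile within a segment was compared between genotypes last. Of 231 combinations of V and J, edgeR's quasi-likelihood test called 2 (0.866%), both outside the downstream segments, and 0 of the 55 of the members. DESeq2 called 0 of the 231. Among the members 1 combination was under an unadjusted p of 0.05, TRBV24 with TRBJ1-3, with a log2 change of 0.59 (SE 0.222, adjusted p = 0.358, edgeR). The counts of V-J pairs relative to the whole library gave 0 calls among 231 (0%), with 0 under an unadjusted p of 0.05 and 0 with DESeq2.

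The 6 member pairs with the lowest p-values all had an adjusted p of 0.998 in edgeR's quasi-likelihood test. TRBV26 with TRBJ2-5 had 41 and 1446 counts in wild-type thymus and 43 and 1207 in EACBE-/-, a log2 change of -0.50 relative to the library totals. TRBV24 with TRBJ1-3 had 0 and 95 counts in wild-type thymus and 10 and 151 in EACBE-/-, a log2 change of 0.78. TRBV30 with TRBJ2-7 had 8 and 317 against 6 and 246 counts (-0.57). TRBV30 with TRBJ2-3 had 8 and 158 against 7 and 113 (-0.63). TRBV23 with TRBJ1-3 had 6 and 193 against 14 and 289 (0.49), and TRBV26 with TRBJ2-4 had 35 and 1286 against 44 and 1113 (-0.37). No difference between genotypes passed the test for any V-J pair of these segments.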

How the data were processed

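Each Trb library was deposited by the authors as a table of whole-number counts, TRBV against TRBJ. The tool behind the segment calls, and the nature of a count (sequencing read or separate receptor), were not given in the sources used here. If counts are reads, an abundant receptor weighs as much as many rare ones. The build was mm10, per the submitters' processing notes. Totals were 11412 to 443589 counts per library. The other 36 samples were not analysed here. All 33 listed segment symbols matched RefSeq.

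Groups came from the sample labels. The members and lists were chosen with earlier results of these data known. Counts were fitted over the whole table with the quasi-likelihood test of edgeR 4.0.16 in R 4.3.3 (table totals as library sizes, or for J use the total of the joins compared, normalization factors of 1, filterByExpr minimum count 10 and total 15) and Benjamini-Hochberg adjustment at 0.05. SE and intervals of log2 changes were derived from the log2 change and the F statistic of that test, and can be narrower than counting error. TRBV31 stayed in the totals and out of tests between genotypes. TRBJ2 shares and the summed share were tested with exact permutations (scipy 1.17.1). Named J segments of a member were those past the threshold against all other TRBV, named V-J pairs the 6 of lowest p, and like segments the 3 nearest. Alternatives were DESeq2 1.42.0, TMM factors, no filter, rows of 1 replicate kept, a replicate block, equal weights, each pair taken once and each library left out. Other joins without TRBV31, replicate 1 alone and equal weights of the other TRBV too were added after the data were seen. Fits were also run on simulated counts with known changes. For J use the spread of those counts was set and not estimated from the libraries, so no call rate given here rests on them.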

Additional observations from a re-analysis of the deposited data

Results flagged for a closer look

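In 2 of the 55 combinations of V and J of the members, the genotypes lay on different sides of the 16 other TRBV. The share in both wild-type libraries lay on one side of that of the other TRBV, and the share in both EACBE-/- libraries on the other. Such combinations were not counted over all 231, so the 2 are not read as more than the background. The difference between the genotypes was not tested in this form, and the fit of J use between genotypes called neither. The share of TRBJ1-3 among TRBV24 joins differed from that among the other TRBV by a mean of -3.085 percentage points in wild type and 3.223 points in EACBE-/-. It was 0 of 44 counts and 4.39% in wild type and 11.1% (10 of 90 counts) and 6.31% in EACBE-/-. The count of 0 allows a share of up to 6.82%. The share of TRBJ1-1 among TRBV29 joins differed from that among the other TRBV by 0.212 points in wild type and -0.878 points in EACBE-/-.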

How the results depend on the processing

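Depth limits the replicate 1 libraries, where TRBV30 has 34 and 54 counts and TRBV24 44 and 90. No V-J pair was called between genotypes in any alternative, and no TRBV without a block. With the replicate number as a block, 1 of 21 TRBV was called, TRBV30 (log2 change -0.32, adjusted p = 0.0107, edgeR), and calls of J use between genotypes went from 2 to 5, with 0 among the members. The labels do not say that the numbers pair libraries; deviations of libraries with the same number correlated at 0.827 over 21 TRBV. DESeq2 and each left-out library (0 to 0) gave 0 calls of J use between genotypes.

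J use against all other TRBV had 85 calls with DESeq2 (42 higher, 43 lower), 5 in replicate 1 alone (2 higher, 3 lower) and 93 to 153 with 1 library left out (44 to 74 higher, 47 to 79 lower). Among the members it had 12 with DESeq2 (5 higher, 7 lower), 0 in replicate 1 alone (0 higher, 0 lower) and 15 to 30 with 1 library left out (7 to 14 higher, 7 to 16 lower). The cause was not tested; replicate 1 alone has fewer samples.

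Log2 changes between genotypes near 0 turned sign. That of TRBV23 became -0.004341 with DESeq2, -0.0221 with TMM factors and -0.01363 with rows of 1 replicate kept. With 1 library left out, values ranged from -0.31 (without wild type replicate 2) to 0.33 for TRBV23, from -0.10 (without EACBE-/- replicate 2) to 0.38 for TRBV24, from -0.19 to 0.007973 (without wild type replicate 2) for TRBV26 and from -0.29 to 0.16 (without wild type replicate 1) for TRBV29. Sign also turned without EACBE-/- replicate 1 for TRBV23 (-0.13), wild type replicate 1 for TRBV24 (-0.04) and EACBE-/- replicate 2 for TRBV29 (0.04). The summed share difference ranged from -1.704 to 0.543 points, positive without wild type replicate 1. The TRBJ2 difference of the sum from the other TRBV became 0.498 points with equal weights of the 5 members and 0.227 with equal weights of the other TRBV too. With each pair of both sides taken once it was 1.88. That value rests only on 0 counts of TRBV24 and TRBV30 with TRBJ1 segments in the replicate 1 libraries. All other listed pairs had a count, so it cannot measure TRBJ2 use. With 1 library left out, the TRBJ2 difference between genotypes ranged from -2.20 to 4.64 for TRBV23, and that from the other TRBV from -0.150 to 2.50 for TRBV23 and from -3.96 to 0.451 for TRBV24, with the changed sign in each case without EACBE-/- replicate 1.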
